A study of Rattus norvegicus with 20 samples.

Results

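The choroid plexus is a sheet of secretory epithelium around a vascular stroma that hangs in the brain ventricles and makes most of the cerebrospinal fluid (CSF). Its epithelial cells also carry ions, vitamins, amino acids and metals between blood and CSF, largely through solute carriers, a large group of membrane proteins that move small molecules across membranes. The transcripts of 4 solute carrier genes, of 32883 genes listed for each rat, are described here: Slc20a2 (ENSRNOG00000019490), Slc5a6 (ENSRNOG00000057628), Slc6a20 (ENSRNOG00000006010) and Slc39a5 (ENSRNOG00000033361). They were selected on the difference in transcript level between obese and lean rats without injections, as members of the study's own list of plasma membrane transporters that differed there. In that contrast they are only described. The study's list did not use the injected rats or the average over lean and obese rats. The 4 genes were taken from it with earlier results of these data known, so the tests below may not be free of that choice.

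RNA from the choroid plexus (lateral and 4th ventricle) of female Zucker rats 16 weeks of age was sequenced as 1 library per rat. Zucker rats carry fa, a mutation of the leptin receptor that makes homozygous animals overeat and become obese on normal chow. The untreated cohort held 6 lean (+/fa) and 6 obese (fa/fa) rats. The injected cohort held 4 lean rats given sesame oil as the vehicle (VEH, here lean control rats) and 4 obese rats given testosterone propionate in sesame oil (TT, here obese + TT rats), by subcutaneous injection over the last 4 weeks. There was no obese group given oil alone and no lean group given testosterone, so obesity and testosterone cannot be told apart within the injected cohort, and between the obese groups injection, testosterone and cohort cannot be told apart. The lean control rats had oil only, so between the lean groups testosterone plays no part, and injection and cohort cannot be told apart. Rats are numbered as in the labels, 1 to 20. The values are in TPM, an abundance per transcript length scaled to the same total in every library. TPM keeps no sequencing depth, so how many reads a value rests on is not known.

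The carriers serve different nutrients. Slc20a2 encodes PiT-2, which brings phosphate into cells together with sodium and whose loss in people is a cause of brain calcification. Slc5a6 encodes the sodium-dependent multivitamin transporter SMVT, which takes up biotin, pantothenate and lipoate. Slc6a20 encodes XT3, also called SIT1, a sodium- and chloride-coupled carrier of proline and other imino acids. Slc39a5 encodes ZIP5, a member of the ZIP family, which moves zinc into the cytosol. RefSeq (build GRCr8) lists the symbol Slc6a20 as an older name of Slc6a20a and holds a near neighbour, Slc6a20b, on the same chromosome. How reads of the copies were divided in the deposited values is not known, so the value of Slc6a20 may be that of more than a single copy.

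As background, the 250 bases before the start of transcription that RefSeq gives on GRCr8 are printed for the 3 genes found in the promoter table. They are Slc5a6 (chr6:31040150-31040399, plus strand), Slc6a20a (chr8:132199901-132200150, minus strand) and Slc39a5 (chr7:1414785-1415034, minus strand). Slc20a2 had no entry there. Whether these bases had a part in the transcript levels was not tested. Capitals mark matches, on either strand, to an E-box (CACGTG), the short site of steroid hormone receptors (AGAACA), the core of a metal response element (TGCGCNC or TGCACNC), a GC box (GGGCGG) or a TATA box (TATAAA).
Slc5a6: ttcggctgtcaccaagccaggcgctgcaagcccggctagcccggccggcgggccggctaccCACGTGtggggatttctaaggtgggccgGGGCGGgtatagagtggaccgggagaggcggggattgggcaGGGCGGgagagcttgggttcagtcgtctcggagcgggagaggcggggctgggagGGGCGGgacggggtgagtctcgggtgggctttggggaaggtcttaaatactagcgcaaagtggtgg
Slc6a20a: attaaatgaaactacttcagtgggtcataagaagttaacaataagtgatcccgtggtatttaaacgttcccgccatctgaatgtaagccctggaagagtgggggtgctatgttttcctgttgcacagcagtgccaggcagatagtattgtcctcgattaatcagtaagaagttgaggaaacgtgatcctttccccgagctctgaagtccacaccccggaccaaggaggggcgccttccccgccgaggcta
Slc39a5: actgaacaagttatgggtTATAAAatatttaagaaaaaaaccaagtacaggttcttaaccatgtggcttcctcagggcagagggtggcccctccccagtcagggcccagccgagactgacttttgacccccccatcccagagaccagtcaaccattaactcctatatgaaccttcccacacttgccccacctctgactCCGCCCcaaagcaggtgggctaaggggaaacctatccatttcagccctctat
No matches overlapped. The window of Slc5a6 held 1 E-box and 3 GC boxes and had a GC content of 68.0%. Slc39a5 had 1 GC box and 1 TATA box, the latter at positions -232 to -227 counted from the start, at a GC content of 50.8%, and Slc6a20a had a match to none of the motifs, at 49.2%. Over 33465 rat windows of the same length the median GC content was 51.2%, and 5.59% held the E-box, 17.5% the hormone receptor site, 20.6% the metal response core, 30.5% the GC box and 12.9% the TATA box. The hormone receptor site and the metal response core were in none of the 3 windows, which says only that these letters are not there.

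Slc20a2 was the most abundant of the 4, with a mean of 123.0 TPM over the 20 rats, above 95.1% of the genes that averaged 0.1 TPM or more. Slc5a6 followed at 80.0 TPM and Slc6a20 at 19.7 TPM. Slc39a5 was low at 2.69 TPM, above 33.0% of these genes. Since TPM is per length, these levels can be compared between genes.

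In the untreated rats Slc20a2 ran from 87.67 TPM (rat 1) over a median of 103.8 to 128.64 TPM (rat 2) in the lean group. The obese rats ran from 74.76 over 84.05 to 87.64 TPM. The groups did not overlap, though the lowest lean rat and the highest obese rat were 87.67 and 87.64 TPM. The means were 106.0 ± 13.6 and 83.3 ± 4.76 TPM (SD, n = 6 of each), a difference of -0.34 on the log2 scale (standard error 0.08). Slc6a20 was at 12.89, 18.86 and 21.05 TPM (lowest, median, highest) in the lean rats and at 11.65, 12.85 and 14.72 TPM in the obese rats. Rat 1 was again the lowest lean rat and alone among the lean rats lay inside the range of the obese rats. The log2 difference of Slc6a20 was -0.43 (standard error 0.11).

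Slc5a6 differed least, with 62.64, 72.98 and 78.31 TPM in lean and 59.43, 65.84 and 70.66 TPM in obese rats, overlapping ranges and a log2 difference of -0.13 (standard error 0.07). Slc39a5 went the other way. It was at 1.3, 1.77 and 2.09 TPM in lean rats and at 2.29, 2.415 and 2.72 TPM in obese rats, so that every obese rat was above every lean rat, with a log2 difference of 0.48 (standard error 0.12). The phosphate carrier was thus lower and the zinc carrier higher in obese rats without overlap, the sort of separation seen in 0.244% (lower) and 0.297% (higher) of the 15176 genes compared. These differences chose the genes and carry no test. The spread between obese rats was the smaller for each gene, with a coefficient of variation of 5.71 to 8.01% against 8.79 to 16.8% in lean rats. This spread is from the same libraries that chose the genes, and how many of all genes share it was not counted.

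**Figure D1:**
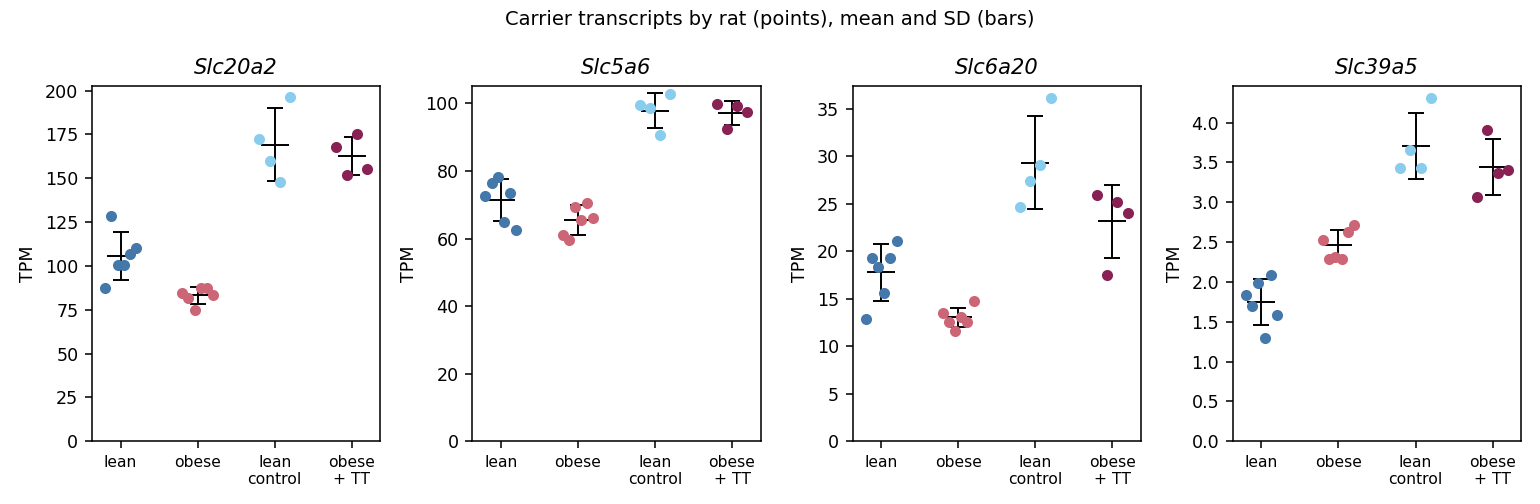
TPM of Slc20a2, Slc5a6, Slc6a20 and Slc39a5 (y axes, starting at 0) in each of the 20 rats (points), by group (x axis), with the mean and the SD as bars. In all 4 panels the lean control and obese + TT rats lie above the untreated group of the same phenotype, and the gap between lean and obese seen in the untreated rats is small or absent in the injected rats except in Slc6a20, where the means are 29.3 and 23.2 TPM.

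The injected cohort asks whether obesity together with testosterone goes with other levels of these carriers than in lean rats given oil. Slc6a20 showed the widest gap, and the other genes differed by less than the spread between rats. Slc6a20 was at 24.65, 27.4, 29.1 and 36.18 TPM in lean control rats 13 to 16 and at 25.93, 17.51, 25.19 and 24.05 TPM in obese + TT rats 17 to 20. The ranges overlapped, with rat 18 below and rat 16 above all others. The means were 29.3 ± 4.92 and 23.2 ± 3.85 TPM (SD, n = 4 of each), a fold of 0.789 with a 95% interval of 0.629 to 0.99 from limma on log2(TPM + 0.1). The log2 difference of -0.34 (standard error 0.15) had an unadjusted p of 0.0426 and an adjusted p of 0.668 in limma with Benjamini-Hochberg adjustment over all genes, and an exact two-sided permutation test over the 8 rats gave p = 0.0857 (smallest p possible 0.0286). Without rat 18 the log2 difference was -0.21, and without rat 16 it was -0.24.

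Slc20a2 was at 172.24, 160.04, 148.11 and 196.64 TPM in the lean control rats and at 167.63, 151.82, 175.46 and 155.36 TPM in the obese + TT rats. All obese + TT rats lay within the range of the lean control rats. The log2 difference was -0.05 (95% interval -0.25 to 0.14, limma adjusted p = 0.924; exact permutation p = 0.629). The interval runs from a fold of 0.841 to 1.11. Beside it stands the log2 difference of -0.34 in the untreated rats; whether the cohorts differ in this was not tested for any of the carriers, since the untreated contrast chose them.

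Slc5a6 was at 99.41, 98.58, 90.6 and 102.79 TPM in lean control rats and at 99.81, 92.28, 99.28 and 97.31 TPM in obese + TT rats. The ranges were nearly the same, with a log2 difference of -0.01 (95% interval -0.13 to 0.11, limma adjusted p = 0.981). Slc39a5 was at 3.43, 3.66, 3.43 and 4.31 TPM in lean control rats and at 3.06, 3.91, 3.37 and 3.41 TPM in obese + TT rats. The groups overlapped, and its mean was lower, not higher, in the obese + TT rats, by -0.11 on the log2 scale (95% interval -0.40 to 0.19, limma adjusted p = 0.891; exact permutation p = 0.343). The interval runs from a fold of 0.758 to 1.14.

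All 4 genes therefore had a lower mean in the obese + TT rats, by a median of -0.08 on the log2 scale where the median of the 15259 genes tested was 0.009. None of the 4, and 0 genes in all (0.0%), passed an adjusted p of 0.05 in limma, while 1134 genes (7.43%) had an unadjusted p under that value, of the 4 only Slc6a20. The study did report genes that differed between these groups, with DESeq2 on read counts, so the 0 holds only for limma on TPM. The count of genes past the adjusted threshold was 25 without rat 13, 4 without rat 19, 3 without rat 15, 2 without rat 17, 1 without rat 14 or without rat 20, and 6 in a fit of all 20 libraries, with none of the carriers among them. None of the 4 had groups that did not overlap, as 4.02% of all genes did. The signs of the smallest differences rested on single rats. Without rat 16, the log2 difference was 0.02 for Slc20a2 and 0.02 for Slc5a6, and without rat 18 it was 0.02 for Slc5a6. Rat 14, whose library had the fewest genes above 0 TPM (14968, other rats 15609 to 16860), changed the call of none of the carriers when left out. Some markers of other cells also had different means in these groups, but none of the markers passed an adjusted p of 0.05 in limma. Hba-a1, an alpha globin, was at 1213.2 to 3302.78 TPM in lean control and 2641 to 4444.12 TPM in obese + TT rats. These ranges overlapped (log2 difference 1.12, limma adjusted p = 0.518). The 4 blood markers with a symbol summed to 2168 to 5768 and 4799 to 8388 TPM. The astrocyte gene Gja1 was at 1.21 to 2.47 TPM in lean control and 2.94 to 3.39 TPM in obese + TT rats, without overlap (log2 difference 0.76, limma adjusted p = 0.519). Cd74, a marker of antigen-presenting cells, was at 58.9 to 86.98 and 26.43 to 68.93 TPM (-0.69, limma adjusted p = 0.627). An unadjusted p under 0.05 was found in limma for 3 of 4 blood, 1 of 2 immune, 1 of 1 astrocyte and 1 of 10 epithelial markers. It was found for 0 of 3 stromal and 0 of 2 endothelial and mural markers. A marker can have a symbol here because the study called it different in these data, so these counts are no evidence about the cell types. The part of the markers in the differences of the carriers was not tested.

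**Figure D2:**
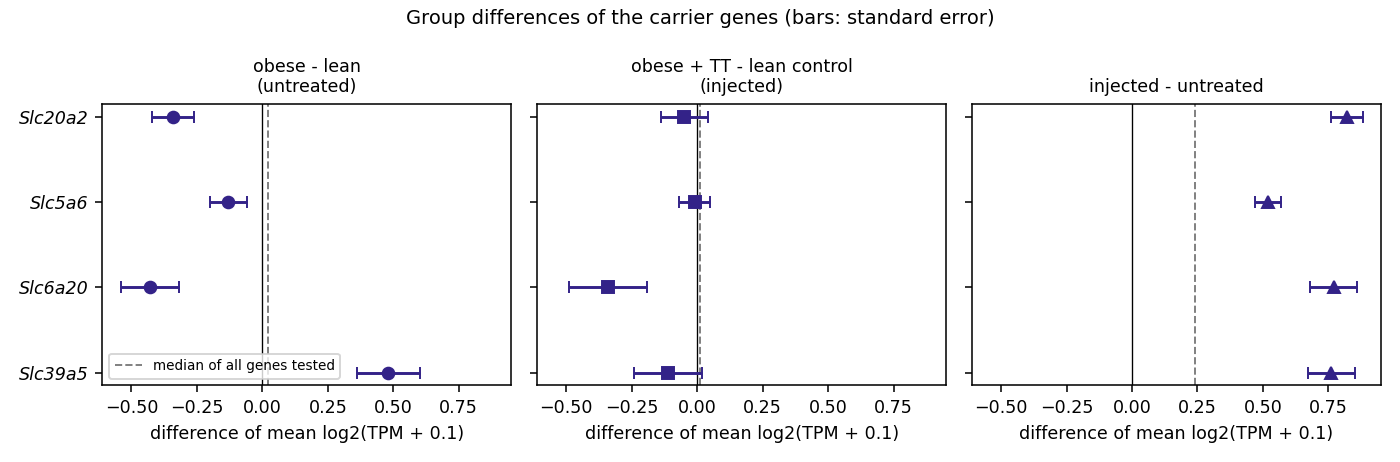
Difference of mean log2(TPM + 0.1) (x axis) for each carrier gene (y axis) in 3 comparisons, obese minus lean without injections, obese + TT minus lean control, and injected minus untreated averaged over lean and obese, with standard errors as bars and the median of all genes tested as a dashed line. The injected comparison lies near 0 apart from Slc6a20 at -0.34, and in the comparison of cohorts the 4 genes lie at 0.52 to 0.82, right of the median of 0.242.

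As TPM, all 4 carriers were higher in the injected cohort, in lean and in obese rats. Every lean control rat was above every lean rat, and every obese + TT rat above every obese rat, in all 4 genes. How many of all genes were separated in this way was not counted, so it cannot be called particular to the carriers. The median of all genes was itself higher in the injected rats, by 0.24 on the log2 scale between lean groups and 0.25 between obese groups. Between lean groups the mean of Slc20a2 was 1.60 times higher in the injected rats, that of Slc5a6 1.37 times, that of Slc6a20 1.65 times and that of Slc39a5 2.12 times. Between obese groups these ratios were 1.95, 1.49, 1.78 and 1.4. Slc39a5 had the largest ratio between lean groups and the smallest between obese groups, with means of 1.75 and 2.46 TPM in untreated lean and obese rats and of 3.71 and 3.44 TPM in lean control and obese + TT rats.

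Averaged over lean and obese, a quantity that does not depend on the difference that chose the genes, the log2 difference between injected and untreated rats was 0.82 for Slc20a2 (standard error 0.06, limma adjusted p = 3.57e-10), 0.52 for Slc5a6 (0.05, adjusted p = 5.08e-09), 0.77 for Slc6a20 (0.09, adjusted p = 3.42e-07) and 0.76 for Slc39a5 (0.09, adjusted p = 1.75e-07). The folds were 1.77, 1.43, 1.70 and 1.69. In Slc20a2, Slc5a6 and Slc39a5 all 8 injected rats were above all 12 untreated rats, whereas in Slc6a20 rat 18, at 17.51 TPM, lay among the lean rats. All 4 passed the threshold upward, but so did 48.7% of the 15406 genes tested (another 20.8% passed downward), and 25.1% had every injected rat above every untreated rat. A larger increase than that of Slc20a2 was seen in 18.3% of all genes, and than that of Slc5a6 in 33.3%.

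Several features of the libraries moved with the cohort. Ttr (transthyretin, the main secreted protein of this epithelium) took 31.15 to 39.33% of the TPM in untreated and 25.77 to 30.54% in injected rats, and the median of all genes rose by 0.242 on the log2 scale with the TPM scaling. After Ttr was left out and TPM rescaled, the median log2 difference of all genes was 0.118 and the carriers lay at 0.38 to 0.69. With each library centred on the median over genes that averaged 10 TPM or more, the log2 differences were 0.56, 0.25, 0.50 and 0.49 for Slc20a2, Slc5a6, Slc6a20 and Slc39a5, with limma adjusted p-values up to 5.28e-05. With that scaling 33.8% of the genes passed upward and 35.6% downward, so that 48.7% of the called genes were higher in place of 70.1%.

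Markers of other cell types differed between the cohorts as well. The stromal collagen binder Dcn (decorin) was at 92.5 and 88.6 TPM in lean and obese rats and at 10.9 and 9.68 TPM in lean control and obese + TT rats (log2 difference -3.15), and the pericyte marker Rgs5 at 99.7, 99.8, 5.51 and 4.11 TPM (-4.53). Of 10 epithelial markers, 9 were higher in the injected rats and Ttr was lower, with a median log2 difference of 0.57, and after centring 8 were higher and Ttr lower. Among them was Kcnj13, a potassium channel of this epithelium (623.0, 613.0, 1300 and 1240 TPM). Of all genes, 48.7% passed upward and 20.8% downward as TPM, and 33.8% and 35.6% after centring. Both endothelial and mural markers that have a symbol here (2 of 8 listed) and both immune markers (2 of 5) were lower. Of the 3 stromal markers with a symbol (of 6), Dcn and Col1a1 were lower and Pdgfra higher. The astrocyte gene Gja1 (1 of 4) fell by 1.32 on the log2 scale, and 0 of the 4 blood markers passed the test as TPM. After centring 1 was lower (Hba-a2, -0.45, limma adjusted p = 0.0186), with FPKM 2 were lower, and relative to 9 epithelial markers 3 were lower. No marker listed for neurons, oligodendrocytes, ependyma or meninges has a symbol in the tables used. In a whole tissue, fewer cells of a type and less RNA per cell cannot be told apart.

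**Figure D3:**
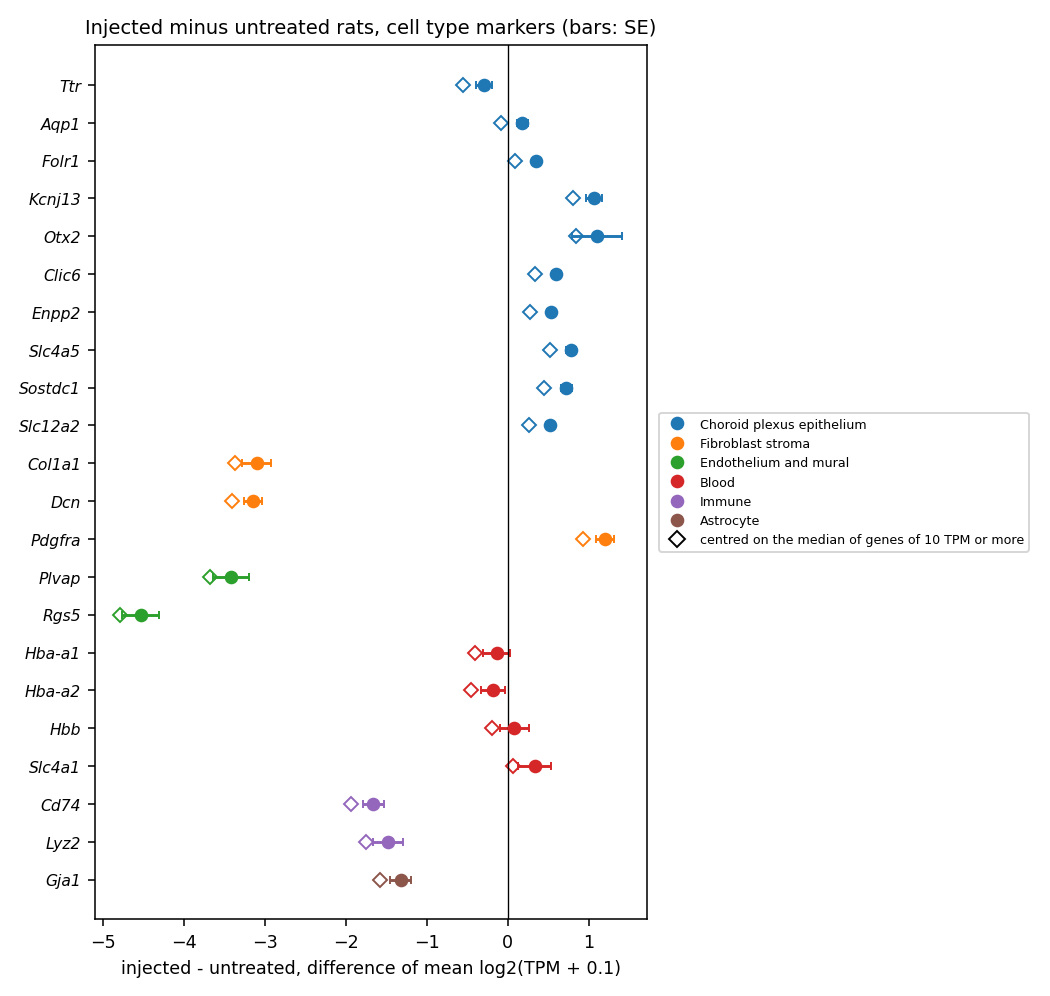
Log2 difference between injected and untreated rats (x axis, averaged over lean and obese, bars are standard errors) for each cell type marker with a symbol (y axis), as TPM (filled) and centred on the median (open). Epithelial markers other than Ttr lie right of 0 as TPM, while Dcn, Col1a1, Plvap and Rgs5 lie between -3.10 and -4.53. The stromal marker Pdgfra lies on the other side, at 1.20.

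Set against the mean log2 level of the 9 epithelial markers other than Ttr, a scaling chosen after seeing the data, the cohort difference no longer passed the threshold for any of the carriers. It was 0.17 for Slc20a2 (95% interval 0.00 to 0.34, limma adjusted p = 0.0642), 0.12 for Slc6a20 (-0.09 to 0.33, adjusted p = 0.300), 0.11 for Slc39a5 (-0.07 to 0.29, adjusted p = 0.266) and -0.13 for Slc5a6 (-0.26 to -0.01, adjusted p = 0.0558). On this scale the median of all genes was -0.408, with 14.4% of the genes past the threshold upward and 57.8% downward. The sign of Slc5a6 turned. Which cells the carrier transcripts came from was not measured. Within the injected cohort, the same scaling gave log2 differences between obese + TT and lean control rats of -0.12, -0.08, -0.41 and -0.17 for Slc20a2, Slc5a6, Slc6a20 and Slc39a5, with adjusted p-values of 0.420 or more.

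Genes of the same transport tasks were compared by lists. Only part of each list has a symbol in the tables used here, 20 different genes in all, mostly well expressed ones. Between obese + TT and lean control rats 0 of the 20 passed in limma, with a median log2 difference of 0.01. An unadjusted limma p under 0.05 was found for 2 of them, and for 7.43% of all genes. Between the cohorts 11 of the 20 were higher and 4 lower as TPM, and 9 and 8 after centring on the median. Relative to the epithelial markers 4 were higher and 13 lower. Of all 15406 genes tested, 48.7% passed upward and 20.8% downward as TPM, and 33.8% and 35.6% after centring. On the epithelial scale these shares were 14.4% and 57.8%. The median log2 difference was 0.22, -0.05 and -0.43 on the 3 scales, where that of all genes was 0.242, -0.022 and -0.408.

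Among the phosphate genes (2 of 6 with a symbol), the phosphate exporter Xpr1 was at 15.22 to 26.02 TPM in all untreated and 47.42 to 60.37 TPM in all injected rats, a log2 difference of 1.34 (standard error 0.08, limma adjusted p = 9.03e-12), where that of the importer Slc20a2 was 0.82. Relative to the epithelial markers Xpr1 still differed by 0.69 (limma adjusted p = 1.62e-08). Xpr1 was also the only gene of the brain calcification list (1 of 5) that could be followed. The mitochondrial phosphate carrier Slc25a3 was at means of 593.0 to 634.0 TPM in the 4 groups (log2 difference -0.04, limma adjusted p = 0.419). After centring, Slc25a3 was lower by -0.30 (limma adjusted p = 2.17e-07).

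Of the vitamin carriers (4 of 11), 3 rose between the cohorts and 1 fell, as TPM and after centring, while relative to the epithelial markers 2 rose and 2 fell. Of all genes, 48.7% passed upward as TPM, 33.8% after centring and 14.4% on the epithelial scale. Slc23a2, which takes up vitamin C, had means of 65.6, 60.4, 119.0 and 131.0 TPM in lean, obese, lean control and obese + TT rats (log2 difference 1.00), and the thiamine carrier Slc19a2 of 25.3, 28.5, 49.5 and 46.8 TPM (0.85). Relative to the epithelial markers these were 0.35 and 0.20 (limma adjusted p = 0.000689 and 0.0155). Folr1, the folate receptor and itself one of the epithelial markers, rose by 0.35 as TPM and was at -0.30 on the epithelial scale. The reduced folate carrier Slc19a1 was at 108.0, 94.9, 90.3 and 96.7 TPM (log2 difference -0.12, limma adjusted p = 0.0422). Slc5a6, at 0.52, lay between Folr1 and Slc19a2. The enzyme subunit genes Pccb and Mccc2, of carboxylases that need the biotin SMVT brings in, were the 2 of 19 users with a symbol, and had log2 differences of 0.04 and 0.01 as TPM (limma adjusted p = 0.393 and 0.839) and of -0.22 and -0.25 after centring (limma adjusted p = 9.63e-05 and 0.00024).

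Of the amino acid carriers (5 of 25), 4 rose between the cohorts as TPM and after centring, where 48.7% and 33.8% of all genes passed upward. Relative to the epithelial markers 1 rose and 1 fell. The 4 that rose as TPM were Slc38a3, which carries glutamine (101.39 to 166.11 TPM in untreated and 168.35 to 248.38 TPM in injected rats, log2 difference 0.63), Slc7a10 (0.59), Slc7a8, a light chain that pairs with Slc3a2 (0.99), and the low gene Slc6a17, a relative of Slc6a20 named here after its values were seen (1.15, standard error 0.25). Slc7a8 alone stayed past the threshold upward on the epithelial scale (0.34, limma adjusted p = 0.000921). Slc3a2 itself had a log2 difference of 0.13 (limma adjusted p = 0.0750) and was lower by -0.13 after centring (limma adjusted p = 0.0403).

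The zinc carriers with a symbol (4 of 23) had smaller log2 differences than the 0.76 of Slc39a5. Slc39a12 was higher by 0.37, Slc30a9 by 0.26 and Slc39a13 by 0.17 on the log2 scale as TPM, and after centring only Slc39a12 remained past the threshold upward (0.10, limma adjusted p = 0.0123). Slc39a7, which releases zinc from the endoplasmic reticulum, had a log2 difference of -0.13 as TPM (limma adjusted p = 0.0390). Relative to the epithelial markers all 4 were lower, by -0.28 to -0.78, where Slc39a5 was at 0.11. Metallothioneins are small proteins that bind zinc. Of their 3 genes with a symbol, 2 fell as TPM and after centring, and 3 relative to the epithelial markers. Of all genes, 20.8% passed downward as TPM, 35.6% after centring and 57.8% on the epithelial scale. Mt2A was at 52.62 to 256.64 TPM in untreated and 3.16 to 17.25 TPM in injected rats, a log2 difference of -3.90 (standard error 0.26, limma adjusted p = 7.99e-11), and Mt1 at means of 211.0, 151.0, 116.0 and 88.5 TPM (-0.82). Both were lower under every scaling run. Mt3 was at 293.0, 257.0, 331.0 and 294.0 TPM (log2 difference 0.17, limma adjusted p = 0.0828), and relative to the epithelial markers it was lower by -0.48 (limma adjusted p = 0.000182). Dcn, Col1a1, Plvap and Rgs5 were also lower in the injected cohort, while the stromal marker Pdgfra was higher (1.20). The part of these markers in the metallothionein values was not tested. Mtf1 and Mt1a of this list have no symbol here.

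**Figure D4:**
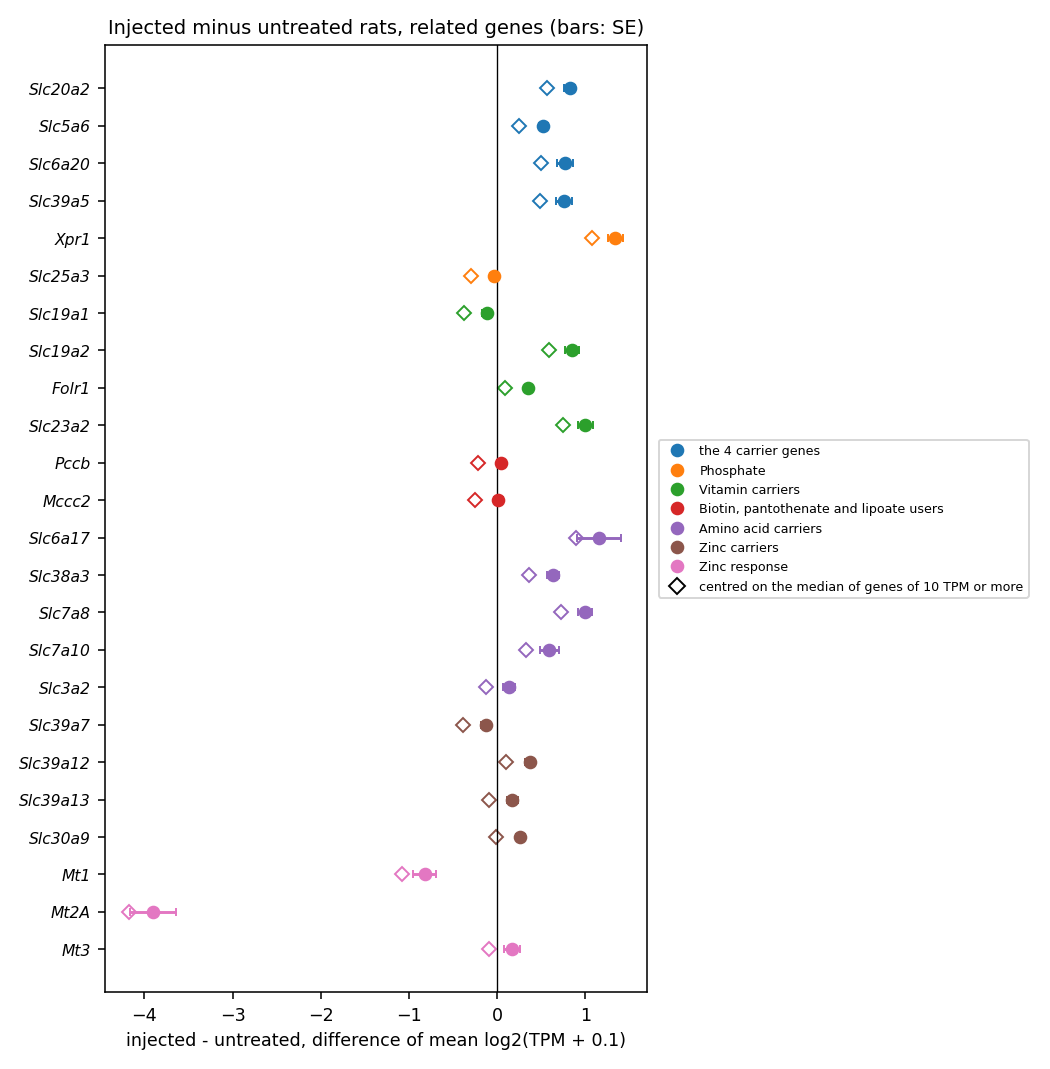
Log2 difference between injected and untreated rats (x axis, averaged over lean and obese, bars are standard errors) for the 4 carrier genes and for genes of the same transport tasks (y axis), as TPM (filled) and centred on the median (open). Xpr1 at 1.34 lies right of the 4 carriers, and Mt2A at -3.90 lies farthest left.

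Across the 20 rats the levels of the carriers rose and fell together, with Pearson correlations of log2(TPM + 0.1) from 0.557 (Slc6a20 and Slc39a5) to 0.926 (Slc20a2 and Slc6a20). The rats share their cohort and scaling in these values. With the mean of each group taken off, Slc20a2 and Slc6a20 still had a correlation of 0.674 over 20 rats and Slc5a6 and Slc39a5 of 0.484, while the other 4 pairs lay between 0.0953 and 0.257. Lean control rat 16 held the highest value of all 20 rats in each of the 4 genes (196.64, 102.79, 36.18 and 4.31 TPM). Rat 1 was low in both Slc20a2 and Slc6a20 relative to the lean group.

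**Figure D5:**
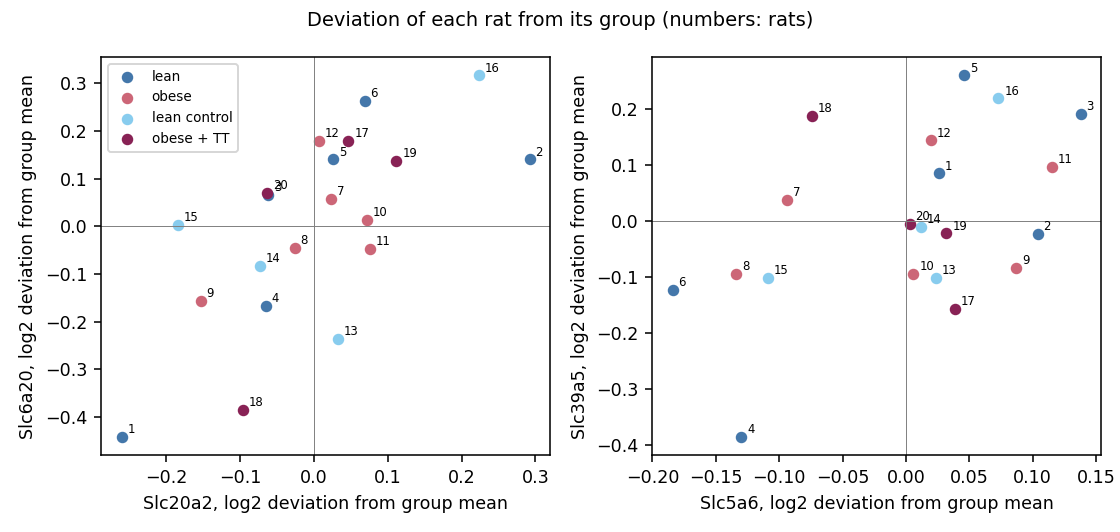
Deviation of each rat's log2(TPM + 0.1) from the mean of its group, Slc6a20 against Slc20a2 on the left and Slc39a5 against Slc5a6 on the right, with rats numbered. The left panel has a correlation of 0.674 and the right of 0.484, with rat 1 at the lower left of the left panel and rat 16 at its upper right.

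The genes most like each carrier were sought among 2567 others with a symbol and a mean of at least 1 TPM. Some of these can have a symbol because the study called them different between groups, so likeness by level can partly come from the naming. By level over 20 rats, genes close to Slc20a2 were Tmem184b (Pearson correlation 0.965) and Pdzd2 (0.965). For Slc5a6 they were Slc4a2, the anion exchanger of the basolateral membrane (0.975), and Zdhhc9 (0.972). Those for Slc6a20 were Tmem130 (0.940), Acsl3 (0.938) and Rdh11 (0.933), and for Slc39a5 Slc15a4 (0.965), Ncoa5 (0.958) and Chtf8 (0.954). With the group means taken off, Tmem184b was again the closest to Slc20a2 (0.838), followed by Psap (0.819) and Fmod (0.774). Slc5a6 then stood next to Lasp1 (0.807), Slc12a4 (0.806) and Fads3 (0.791), Slc6a20 to AABR07031489.1 (0.733), Etnk1 (0.715) and Atp1b2 (0.713), and Slc39a5 to Marveld1 (0.884), Hm13 (0.863) and Hadha (0.812). Tmem184b was the only gene among the 3 closest by both measures.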

How the data were processed

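The authors mapped 150 base paired-end reads to Rnor_6.0 (Ensembl 104) with STAR 2.7.9a and compared read counts with DESeq2; counts were not used here. The submitters' processing notes also name RSEM 1.3.3, with no role. The authors deposited, per rat, TPM (summing to 1000000 within rounding) and FPKM (TPM times a factor of 0.921 to 1.2199 for each rat).

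The limma fits (3.58.1, R 4.3.3) took log2(TPM + 0.1) as input and kept genes that averaged 0.1 TPM or more across the rats fitted. The prior variance followed a trend on mean level, and p-values were adjusted by Benjamini-Hochberg across all genes kept. The pseudocount makes fold changes of low genes smaller. The injected groups were fitted alone, and the cohorts in a fit of all 20 libraries with a mean for each group. On simulated data with the spread of the injected libraries, limma called 85.0% of 100 genes given a log2 change of 1 and 45.0% of 100 given 0.5 (15014 genes simulated). The changed genes averaged 1 TPM or more and were all changed in the same simulated data, with values drawn independently. These shares can therefore be higher than in the real comparison, where 0 genes passed. Exact permutation tests used scipy 1.17.1. Python 3.11.15 with pandas 2.3.3 handled tables, and matplotlib 3.10.9 drew figures.

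Gene symbols were read from supplementary lists of the study, which name 2616 of the 32883 identifiers (shortened lists led by abundant genes). The supplementary lists include the genes that the study called different in each cohort, so a gene can have a symbol for that reason. Genes were named by rule: the 4 carriers, up to 4 genes a list by level (and Slc6a17 outside it), and the 3 genes most like each carrier (some of these are not reported here), while markers were named after their values were seen. Members and lists were chosen with earlier results of these data known. No library was a duplicate of another (at most 0.46% identical values in 42 pairs). Whether rats of a group came from separate litters is not stated. Alternatives were the pseudocount, filters, eBayes options, scalings, the fit of all libraries and leaving out each rat; the epithelial scaling was added after seeing the data.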

Additional observations from a re-analysis of the deposited data

How the results depend on the processing

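No paired analysis was possible because the groups share no replicate numbers. Between obese + TT and lean control rats, none of the 4 carriers passed the threshold under any alternative run. Leaving out 1 rat at a time gave log2 differences of -0.11 to 0.02 for Slc20a2, -0.05 to 0.02 for Slc5a6, -0.42 to -0.21 for Slc6a20 and -0.17 to -0.03 for Slc39a5, with limma adjusted p-values from 0.410 to 0.997. The sign turned, at 0.02, for Slc20a2 without rat 16 and for Slc5a6 without rat 16 or rat 18, and the other scalings, filters and options turned no sign there. The number of genes called between these groups was 0, between 0 and 25 without single rats (25 without rat 13), and 6 in the fit of all 20 libraries.

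Between the cohorts, each carrier stayed higher and past the threshold without any single rat (0.78 to 0.85 for Slc20a2, 0.50 to 0.53 for Slc5a6, 0.72 to 0.83 for Slc6a20, 0.72 to 0.78 for Slc39a5) and under all alternatives except the scaling to the epithelial markers, where the log2 differences were 0.17 for Slc20a2, -0.13 for Slc5a6, 0.12 for Slc6a20 and 0.11 for Slc39a5, none past the threshold. The cause was not tested. With FPKM they were 0.55, 0.25, 0.50 and 0.50. Between 9156 and 11229 genes were called under the alternatives, against 10718. The number of reads is unknown, so the precision of the low gene Slc39a5 cannot be set by depth. None of the 16 sets of values, 4 genes in 4 groups, held a rat apart from the others by Dixon's criterion. In groups of 4 or 6 rats this criterion can find only extreme values. Leaving out rat 18 still moved the log2 difference of Slc6a20 between obese + TT and lean control rats from -0.34 to -0.21.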
